A study of Homo sapiens with 74 samples.

Results

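The 806 regions described here were more accessible in HAP1 cells without SMARCA4 and, separately, in HAP1 cells without ARID1A than in wild-type cells. They were chosen from the 138795 autosomal regions among the 145536 regions of the knockout table. Accessibility was the count of ATAC-seq reads in a region scaled to the library's total (CPM), taken as log2(CPM + 0.5) and averaged over the libraries of a group. A region was kept when its mean over the 4 SMARCA4 knockout libraries was at least 2 CPM and when its log2 level was at least 0.8 above the mean of wild-type replicates 1 and 2 in both knockouts, a difference called its rise. Of the 99712 autosomal regions with enough reads, 3844 rose by this much without SMARCA4 and 1841 without ARID1A, and 806 did both. These 10 libraries chose the regions, so their values are given as a description and carry no test. Tests were made on the other libraries, which had no part in the choice. Some of them may still come from a clone that chose the regions, as described below.

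ATAC-seq, in which a transposase inserts adapters into accessible DNA, was applied to HAP1, a nearly haploid human cell line derived from chronic myeloid leukaemia cells. The study removed subunits of the BAF complexes one at a time and compared the accessibility of chromatin across the lines. Its knockout table holds 22 knocked-out genes in 26 clones, each with 2 libraries. SMARCA4 (clones 4 and 6), ARID1A (3 and 10), ARID1B (5 and 7) and BCL7B (8 and 10) had 2 clones each. ACTB, ARID2, BCL11A, BCL11B, BCL7A, BRD7, BRD9, DPF1, DPF2, DPF3, PBRM1, PHF10, SMARCA2, SMARCC1, SMARCC2, SMARCD1, SMARCD2 and SMARCD3 had 1 clone each, so that loss of the gene and the history of that clone cannot be told apart. By the form of their titles the libraries fall into 2 sets, an inferred technical grouping. The smaller, set 2, is made up of wild-type replicates 5 and 6 with ARID1B clone 5, BCL7B clone 10 and SMARCC2 clone 10. All other clones and wild-type replicates 1 and 2 form set 1. A second table, the knockdown table, holds 8 groups of 2 libraries: SMARCA4 knockout cells with ARID2 knockdown or control knockdown, ARID2 knockout cells with SMARCA4 knockdown or control knockdown, and wild-type cells with knockdown of SMARCA4 and ARID2 together, of SMARCA4, of ARID2, or with control knockdown.

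A library of set 1 held 7855389 to 12422345 counts, one of set 2 held 5085811 to 7331537, and one behind the knockdown table held 5355899 to 12432292. The median count of the 806 regions ranged over libraries from 14 to 43 reads in set 1, from 14 to 17 in set 2 and from 17 to 47 in the knockdown table, and at most 4 of the regions had no read in any 1 library. Each of the 806 regions is also listed, at identical coordinates, in the knockdown table. The labels do not say whether the 2 libraries of a group were separate cultures. The p-values reflect only the spread between these libraries, which may be technical. The labels also name no clone for the SMARCA4 knockout cells of the knockdown table. Those cells may come from a clone that chose the regions. Loss of SMARCA4 and the history of that clone then cannot be told apart. The files pair no region with a gene, so neither the loss of the targeted genes nor the genes near the regions were examined here. Coordinates are in hg19 as the files give them.

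BAF complexes, also called SWI/SNF, use the energy of ATP to slide and eject nucleosomes, and their loss is known above all for closing enhancers. SMARCA4 and SMARCA2 are the alternative ATPase motors. Canonical BAF contains ARID1A or ARID1B with a DPF subunit, PBAF contains ARID2, PBRM1, BRD7 and PHF10, and a further form without ARID subunits contains BRD9. SMARCC1 and SMARCC2 form the scaffold on which the complexes assemble, SMARCD1, SMARCD2 and SMARCD3 are core subunits of the same scaffold, and BCL7A, BCL7B and ACTB, which is beta-actin, belong to the ATPase module.

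Within the libraries that chose them, the regions had a median SMARCA4 rise of 1.04 and a median ARID1A rise of 0.99 on the log2 scale. The SMARCA4 rise reached 3.38 and the ARID1A rise 2.89, against medians of -0.08 and -0.01 over all autosomal regions. The SMARCA4 rise was the larger of the 2 in 477 regions (59.2%). All 4 SMARCA4 libraries lay above both wild-type libraries in 716 of the 806 regions (88.8%), as they did in 13.2% of autosomal regions. All 4 ARID1A libraries did so in 710 regions (88.1%), as in 12.1% of autosomal regions. The rule worked on means, and each of the 4 clones alone passed the rise of 0.8 in 374 regions. Neither clone of a gene was much higher over the regions as a set. The difference between SMARCA4 clones 4 and 6 had a median of 0.02, and that between ARID1A clones 3 and 10, in the order of the columns, a median of -0.04. Single regions varied more. The 2 clones lay within 0.5 of each other in 685 regions for SMARCA4 and in 685 for ARID1A. The 2 SMARCA4 clones differed by over 1 on the log2 scale in 17 regions, and the 2 ARID1A clones in 5.

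**Figure D1:**
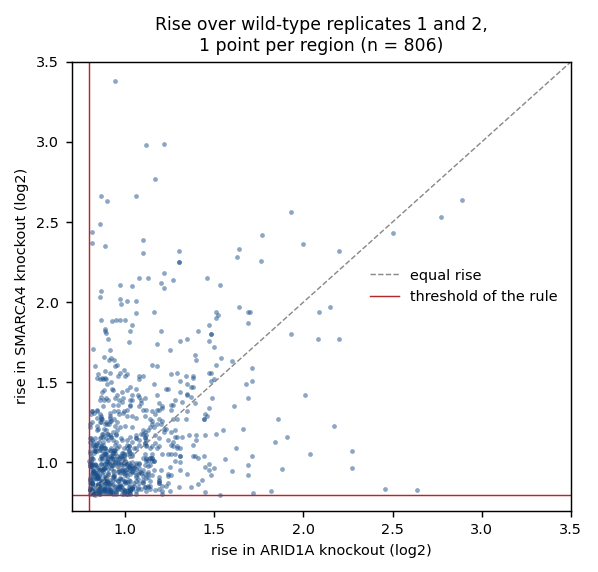
Rise in the SMARCA4 knockout (y axis) against rise in the ARID1A knockout (x axis), both in log2 over wild-type replicates 1 and 2, with 1 point for each of the 806 regions. Most points lie between 0.8 and 1.5 on both axes, and the SMARCA4 rise extends to 3.38 and the ARID1A rise to 2.89.

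At the edge of the rule the regions were weakly accessible or only slightly raised. The 3 members nearest the threshold were chr16:22157943-22158444 with 2.05 CPM in the SMARCA4 knockout, 2.12 in the ARID1A knockout and 0.956 in wild type, chr6:155037880-155038462 with 2.58, 2.17 and 1.13 CPM, and chr3:88638205-88638820 with 4.29, 7.37 and 2.22 CPM. The 3 regions just outside were chr10:91775857-91776572 with 4.88 CPM in the SMARCA4 knockout, 4.42 in the ARID1A knockout and 2.36 in wild type, chr9:75300256-75300836 with 6.87, 6.89 and 3.60 CPM, and chr3:13936702-13937338 with 22.2, 22.7 and 12.5 CPM. The smaller rise was 0.8003 to 0.8004 in these members and 0.7993 to 0.7998 in the regions outside.

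Across the knockout table the 806 regions were highest in the knockouts that chose them. The median over the regions was 4.25 and 4.31 CPM in SMARCA4 clone 4, 4.30 and 4.42 CPM in SMARCA4 clone 6, 3.85 and 4.04 CPM in ARID1A clone 3, and 4.17 and 4.18 CPM in ARID1A clone 10. Next came SMARCC1 clone 12 with 3.17 and 3.48 CPM, of which the lower library overlapped the higher library of ARID2 clone 9 (2.74 and 3.24 CPM). In the 36 libraries of the other 18 set 1 knockouts it ran from 2.20 to 3.24 CPM, and these clones mostly overlapped one another. Wild-type replicates 5 and 6 had 2.18 and 2.48 CPM. Wild-type replicates 1 and 2 were lowest, with 1.75 and 1.77 CPM. As a share of the median of all autosomal regions in the same library, which itself differed between libraries, the members stood at 134.6% to 150% in the SMARCA4 knockouts, 118.3% to 129% in the ARID1A knockouts, 97.06% and 97.14% in the SMARCC1 knockout, 66.67% and 68% in wild-type replicates 5 and 6, and 46.67% and 51.43% in wild-type replicates 1 and 2.

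**Figure D2:**
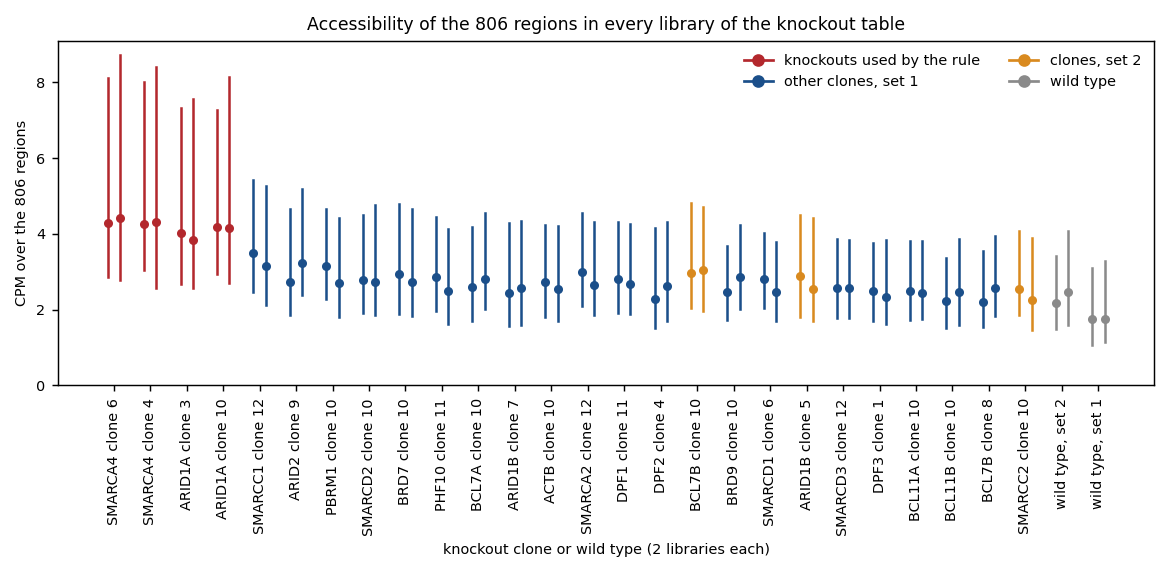
Median accessibility of the 806 regions in CPM (points) with the quartiles over regions (bars), for the 2 libraries of each clone and wild-type set of the knockout table, ordered by the median as a share of the library's autosomal median, wild type last. The SMARCA4 and ARID1A clones lie between 3.85 and 4.42 CPM, SMARCC1 clone 12 at 3.17 and 3.48 CPM, and wild-type replicates 1 and 2 at 1.75 and 1.77 CPM.

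The wild-type libraries that served the rule were low at these regions, which were chosen in part for low values there. Wild-type replicates 1 and 2 lay below the mean of the 19 other set 1 knockouts in 740 of the 806 regions (91.8%). The median difference was -0.50 on the log2 scale, against 0.05 over autosomal regions. The matching share of autosomal regions below that mean is not given. Wild-type replicates 5 and 6 exceeded replicates 1 and 2 by a median of 0.27 at the members and of -0.08 over autosomal regions. Both differences at the members follow in part from the rule. Measured against replicates 5 and 6, 422 members (52.4%) rose by at least 0.8 in the SMARCA4 knockout, as did 9.07% of autosomal regions. In the ARID1A knockout the same held for 376 members (46.7%) and 7.57% of autosomal regions. In both knockouts 341 members rose, and the matching share of autosomal regions is not given. The knockout libraries here are those that chose the members, and they belong to the other set. These shares thus follow in part from the rule and carry no test. The tests that follow use neither wild-type replicate 1 nor 2.

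The regions were not the wide, strongly accessible ones. In wild-type replicates 1 and 2 they had a median of 1.68 CPM, against 3.54 CPM over autosomal regions, and 623 of them lay under that autosomal median. In the SMARCA4 knockout 580 of them lay above the autosomal median. Both levels follow in part from the rule, which took low values in these wild-type libraries and at least 2 CPM in the SMARCA4 knockout. The autosomal regions include those under that limit. Their median width was 564 base pairs, against 622 for autosomal regions and 672 for the 1182 regions that rose by at least 0.8 in the SMARCA4 knockout and by under 0.2 in the ARID1A knockout. The minimum width of 501 base pairs was taken by 323 members (40.1%) and by 32.2% of autosomal regions. At the other end, 69 members (8.56%) were at least 1000 base pairs wide, as were 13% of autosomal regions.

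Members were spread over all autosomes. Their share of a chromosome's regions was 0.581% overall and ran from 0.266% on chromosome 14 (11 of 4139) to 0.984% on chromosome 21 (13 of 1321), with 0.858% on chromosome 10 (56 of 6527). The nearest other member lay a median of 799259 base pairs away. Only 42 members lay within 10 kb of another, in 19 groups. The densest held 4 members at chr10:91596892-91614146, and 3 members each stood at chr10:112403382-112411769 and chr20:59826828-59829529.

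Among the 10 members with the largest smaller rise, chr2:165972142-165973254 led. It had 17.7 and 17.1 CPM in SMARCA4 clone 4, 17.2 and 15.5 CPM in SMARCA4 clone 6, 22.5 and 15.2 CPM in ARID1A clone 3 and 21.0 and 22.5 CPM in ARID1A clone 10, against 1.36 and 3.66 CPM in wild-type replicates 1 and 2. All 8 knockout libraries were above both wild-type libraries, with rises of 2.64 and 2.89. The libraries of the knockdown table had no part in the choice. There, SMARCA4 knockout cells of unnamed clone had 21.1 and 22.9 CPM, against 3.08 and 4.69 CPM in wild-type cells, both with control knockdown. This was a log2 fold change of 2.46 ± 0.37 (SE, edgeR adjusted p = 6.91e-07). ARID1B clone 7 had 17.4 and 16.9 CPM at this region, close to the level without ARID1A, and was 2.39 ± 0.17 above the mean of the other panel knockouts on the log2 scale (edgeR adjusted p = 1.05e-23). BRD9 clone 10 had only 1.23 and 1.80 CPM there, a log2 fold change of -1.44 ± 0.31 (edgeR adjusted p = 0.00126).

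The second of them, chr5:45532754-45533356, was almost closed in wild type, with 0.0972 and 0.378 CPM or 1 and 3 reads in replicates 1 and 2. SMARCA4 clone 4 had 2.19 and 2.77 CPM, SMARCA4 clone 6 had 5.51 and 5.35 CPM, ARID1A clone 3 had 5.02 and 5.35 CPM and ARID1A clone 10 had 3.53 and 4.07 CPM. The level in clone 6 was about that in ARID1A clone 3, and clone 4 was lower than both. It was also open in SMARCC1 clone 12 at 5.43 and 5.95 CPM and in ARID1B clone 7 at 5.87 and 8.96 CPM, with log2 fold changes of 2.21 ± 0.30 and 2.74 ± 0.28 against the other panel knockouts (edgeR adjusted p = 2.51e-09 and 2.93e-15). The wide region chr2:103129196-103131017 reached 17.1 to 31.8 CPM in the SMARCA4 knockouts and 24.7 to 32.2 CPM in the ARID1A knockouts, against 5.54 and 3.66 CPM in wild-type replicates 1 and 2. SMARCC1 clone 12 had 19.2 and 20.5 CPM there, while ARID1B clone 7 had 4.11 and 3.11 CPM and did not pass the test (edgeR adjusted p = 0.237).

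Of these 10 regions, 9 were called higher (edgeR adjusted p at most 0.05) in the SMARCA4 knockout of the knockdown table, where 1.49% of all regions were. The SMARCC1 knockout had 7 called higher, where 3.86% of all regions were, and the ARID1B knockout 4, where 11.2% were. Knockdown of SMARCA4 and ARID2 together in wild-type cells had 3 called higher, where 0.618% were, with a median log2 fold change of 1.07 over the 10 regions. With SMARCA4 knockdown alone edgeR and DESeq2 each called 0, where edgeR called 0.773% of all regions higher. Its median over the 10 was 0.60, with 9 above 0 and 3 higher at an unadjusted p under 0.05. The exception in the SMARCA4 knockout was chr8:75736397-75737029. In the knockout table it had 13.7 and 14.7 CPM in SMARCA4 clone 4, 9.15 and 10.1 CPM in SMARCA4 clone 6, 11.6 and 9.31 CPM in ARID1A clone 3 and 5.42 and 4.90 CPM in ARID1A clone 10, against 2.33 and 1.01 CPM in wild-type replicates 1 and 2. The SMARCA4 knockout cells of the knockdown table had 1.91 and 1.23 CPM, against 1.76 and 1.77 CPM in wild-type cells with control knockdown. The log2 fold change of -0.22 ± 0.61 did not pass the test (edgeR adjusted p = 0.903). The region was thus high in both SMARCA4 clones of one table and overlapped wild type in the other.

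**Figure D3:**
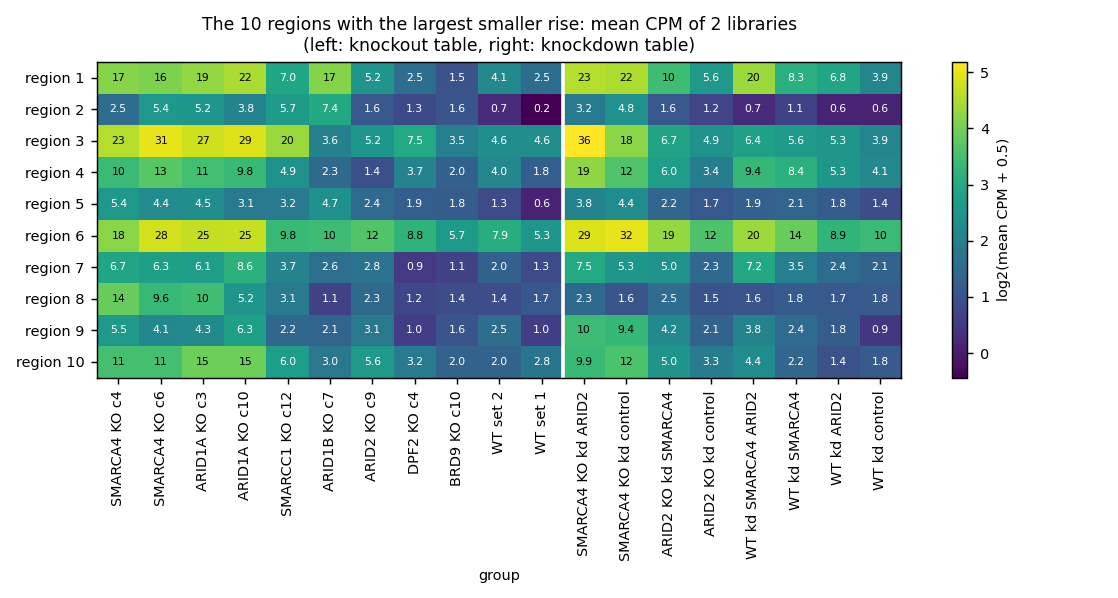
Mean CPM of 2 libraries (printed in each cell, colour on a log2 scale) for the 10 members with the largest smaller rise, in rows from the largest down, over the SMARCA4, ARID1A and 5 further knockouts and wild type of the knockout table (left) and the 8 groups of the knockdown table (right). Region 1 is chr2:165972142-165973254, and region 8, chr8:75736397-75737029, is high in the SMARCA4 knockouts at left and not at right.

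The knockdown table asks what happens at these regions when SMARCA4 is absent or lowered in other libraries. As a share of the library's autosomal median, the members stood at 119.2% and 125.9% in SMARCA4 knockout cells with control knockdown, 95.83% and 96.67% with SMARCA4 and ARID2 knocked down in wild-type cells, 96.67% and 100% with SMARCA4 knocked down, 74.24% and 84.62% with ARID2 knocked down, and 66.67% and 71.43% with control knockdown. In ARID2 knockout cells they stood at 100% in both libraries with SMARCA4 knockdown and at 84% and 88% with control knockdown, and in SMARCA4 knockout cells with ARID2 knockdown at 113.8% and 130.6%. No library of the other groups was as low as the control libraries of wild-type cells, and the ARID2 knockdown came closest to them. In absolute CPM the groups spread more, since the second libraries of several groups had both higher autosomal medians and higher members: SMARCA4 knockdown had member medians of 2.81 and 4.05 CPM, against 2.11 and 2.54 CPM with control knockdown.

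Of the comparisons of this table, knockout of SMARCA4 called the most members. The clone of its knockout cells is not named, so these calls may repeat the state of a clone that chose the regions. A region is said to be called when edgeR's quasi-likelihood test gave an adjusted p of at most 0.05 over all 145617 regions tested. Where 1 library was left out, its group kept only 1. Calls over all regions then fell too in the SMARCA4 knockout, the SMARCA4 knockdown and the double knockdown. In SMARCA4 knockout cells against wild-type cells, both with control knockdown, 188 members were called higher (23.3%) and 0 lower, where 1.49% of all regions were called higher and 8.26% lower. At an unadjusted p under 0.05, 1 member was lower, as were 13.8% of all regions, and DESeq2 called 0 lower. The members' median log2 fold change was 0.78, against 0.08 over all regions tested, and 742 of the 806 lay above 0. Both knockout libraries lay above both control libraries in 568 members (70.5%), as in 31.5% of all regions. Leaving out 1 library gave 86 members without control replicate 1, 112 without control replicate 2 and 95 without knockout replicate 1.

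The largest of these changes was at chr1:97063749-97064425, with 22.6 and 15.7 CPM in SMARCA4 knockout cells, against 0.705 and 1.27 CPM in wild-type cells. Its log2 fold change was 4.26 ± 0.46 (SE, edgeR adjusted p = 3.62e-10). The same region had the largest SMARCA4 rise of all members in the knockout table, at 27.9 to 34.6 CPM, while the ARID1A libraries had 4.89 to 6.88 CPM against 3.21 and 2.02 CPM in wild-type replicates 1 and 2. It was thus a member by a large margin on the SMARCA4 side and a small one, 0.95, on the ARID1A side. The region chr4:147374319-147374945 had 8.85 and 9.97 CPM, against 0.881 and 0.887 CPM, a log2 fold change of 3.32 ± 0.46 (edgeR adjusted p = 1.43e-07).

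Knockdown of SMARCA4 in wild-type cells was set against the same 2 control libraries as the SMARCA4 knockout, as were the ARID2 knockdown, the double knockdown and the ARID2 knockout described next, and in each the members' median was above 0. It called 46 higher (5.71%) and 1 lower, where 0.773% of all regions were called higher and 4.96% lower. The median log2 fold change of the members was 0.49, against 0.06, and 664 lay above 0. The count was 11 without SMARCA4 knockdown replicate 1, 15 without control replicate 1 and 18 without control replicate 2. At chr1:202427666-202429284 the knockdown gave 31.3 and 24.1 CPM, against 3.35 and 1.90 CPM with control knockdown, and no library of the groups overlapped. That was a log2 fold change of 3.33 ± 0.45 (edgeR adjusted p = 1.16e-06), which stands beside 3.37 ± 0.45 in the SMARCA4 knockout (edgeR adjusted p = 4.73e-08). At chr4:39666464-39667303 it gave 52.0 and 32.1 CPM, against 4.93 and 4.69 CPM (3.11 ± 0.44, edgeR adjusted p = 2.2e-06). At chr5:18584575-18585715 it gave 24.3 and 22.4 CPM, against 3.08 and 3.04 CPM (2.89 ± 0.38, edgeR adjusted p = 9.71e-07). The direct comparison of SMARCA4 knockout and SMARCA4 knockdown called none of these 3 regions (edgeR adjusted p = 0.997, 0.992 and 0.444 in the order given).

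One member went the other way. The region chr3:106580073-106581175 fell to 2.23 and 2.64 CPM with SMARCA4 knockdown, against 5.37 and 7.99 CPM with control knockdown (log2 fold change -1.48 ± 0.39, edgeR adjusted p = 0.00999). The call was lost without either SMARCA4 knockdown library and without control replicate 2. The SMARCA4 knockout cells of the same table had 10.7 and 13.2 CPM there, above their control, which did not pass the test (edgeR adjusted p = 0.144).

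Compared directly, SMARCA4 knockout cells were called higher than wild-type cells with SMARCA4 knockdown in 55 members (6.82%) and lower in 1, where 0.21% of all regions were called higher and 0.575% lower. The median log2 difference of the members was 0.25, against -0.02 over all regions. Without 1 library the count was 18 or 26 when a knockout library was left out (replicate 1 or 2) and 13 or 29 when a knockdown library was left out (replicate 1 or 2). The largest difference was at chr4:116585331-116586023, with 21.2 and 16.8 CPM in the knockout, against 2.72 and 2.64 CPM in the knockdown (log2 difference 2.78 ± 0.39, edgeR adjusted p = 5.96e-06). Wild-type cells with control knockdown had 3.08 and 3.68 CPM at this region, so its level in the knockdown was close to that of the control. The reverse held at chr9:110610200-110610701, with 2.15 and 2.19 CPM in the knockout, against 7.08 and 6.52 CPM in the knockdown (log2 difference -1.68 ± 0.44, edgeR adjusted p = 0.0352), a call lost in DESeq2, with library totals alone and without any 1 of the 4 libraries.

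With knockdown of ARID2, the subunit that defines PBAF, no member passed the test in edgeR or DESeq2 with all libraries in. In wild-type cells 0 were called, as were 0 of all regions (0%), and 0 by DESeq2. At an unadjusted p under 0.05, 29 members were higher, where 2.37% of all regions were, and 4 lower, where 1.86% were. Their median log2 fold change was 0.17, against -0.02 over all regions. In SMARCA4 knockout cells ARID2 knockdown again called 0 members and 0% of all regions, and 0 by DESeq2. Without adjustment, 24 were higher at p under 0.05, where 2.54% of all regions were, and 10 lower, where 1.94% were. The median was 0.02. Without ARID2 knockdown replicate 2 in those cells, 2 members were called higher. Knockdown of SMARCA4 and ARID2 together in wild-type cells called 64 members higher (7.94%) and 0 lower, where 0.618% of all regions were called higher and 4% lower, with a median of 0.46. By unadjusted p under 0.05, 1 member was lower, as were 10.7% of all regions, and DESeq2 called 0 lower. The higher count was 19 without double knockdown replicate 1, 22 without control replicate 1 and 27 without control replicate 2. At chr1:202427666-202429284 the double knockdown gave 33.5 and 27.1 CPM, against 3.35 and 1.90 CPM (log2 fold change 3.43 ± 0.45, edgeR adjusted p = 7.43e-07). The SMARCA4 knockdown and the double knockdown share their control libraries, and their own values at this region overlapped.

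ARID2 knockout cells with control knockdown had 3 members called higher (0.372%) and 0 lower than wild-type cells with control knockdown, where 0.0446% of all regions were called higher and 0.374% lower. At an unadjusted p under 0.05, 10 members were lower, as were 5.69% of all regions, and DESeq2 called 0 lower. The median of the members was 0.31, against 0.00. The count fell to 1 without ARID2 knockout replicate 1 and to 0 without control replicate 1. At chr4:77409390-77410392 the ARID2 knockout cells had 13.4 and 8.34 CPM, against 0.881 and 3.17 CPM (log2 fold change 2.33 ± 0.44, edgeR adjusted p = 0.00127), a call lost without ARID2 knockout replicate 1 or control replicate 1. Knockdown of SMARCA4 inside ARID2 knockout cells called 7 members higher (0.868%) and 0 lower, where 0.0556% of all regions were called higher and 0.139% lower. Without adjustment, 4 members were lower at p under 0.05, as were 5.28% of all regions, and DESeq2 called 0 lower. The higher count was 2 without SMARCA4 knockdown replicate 1, 3 without control replicate 1 and 2 without control replicate 2. At chr4:39666464-39667303 it gave 42.2 and 36.1 CPM, against 5.72 and 5.62 CPM (2.93 ± 0.45, edgeR adjusted p = 0.000193), and at chr1:202427666-202429284 it gave 38.7 and 36.7 CPM, against 9.79 and 6.16 CPM (2.36 ± 0.42, edgeR adjusted p = 0.00245). At chr3:169127936-169128632 it gave 20.0 and 12.6 CPM, against 3.77 and 4.71 CPM (2.10 ± 0.43, edgeR adjusted p = 0.0117). The last call was lost without SMARCA4 knockdown replicate 1 or either control library, and that at chr1:202427666-202429284 without control replicate 2. Of the 7 members, 6 were among the 46 called with SMARCA4 knockdown in wild-type cells. The 2 comparisons share no library. The matching share over all regions is not given, so this overlap stands as a count and not as a result. Across the 806 members their log2 fold changes correlated at r = 0.38.

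The effect of SMARCA4 knockdown in ARID2 knockout cells minus that in wild-type cells was tested as an interaction. It called 0 members and 0% of all regions, and 0 by DESeq2. At an unadjusted p under 0.05, 8 members had a positive difference, where 2.75% of all regions had, and 28 a negative one, where 2.45% had. The median difference of the members was -0.21, against 0.05 over all regions. With a block for replicate number, described at the end, SMARCA4 knockdown in ARID2 knockout cells called 55 members and 2405 of all regions higher, against 7 and 81 without it. In wild-type cells it called 92 members and 3809 of all regions higher with the block, against 46 and 1125. The lower number of calls in ARID2 knockout cells is not shown to be a smaller effect.

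**Figure D4:**
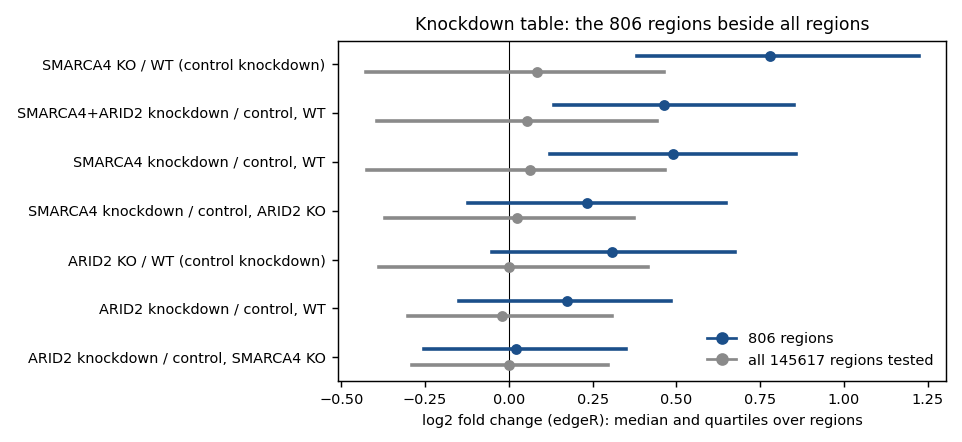
Log2 fold change from edgeR (x axis) in 7 comparisons of the knockdown table, as the median (points) and quartiles (bars) over the 806 regions (blue) and over all 145617 regions tested (grey). The members' median is 0.78 in the SMARCA4 knockout, 0.46 and 0.49 in the double and the SMARCA4 knockdown, and 0.02 with ARID2 knockdown in SMARCA4 knockout cells.

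The remaining 19 knockouts of set 1, called the panel, were each set against the mean of the other 18. Wild-type replicates 1 and 2 could not serve as the reference, since the members were chosen for low values there. The SMARCC1 knockout, which removes a scaffold subunit, had the most members called higher, 145 (18%), and 10 lower, where 3.86% of all regions were called higher and 8.98% lower. The members' median log2 fold change was 0.34, against 0.05, and 637 of 806 lay above 0. Leaving out SMARCC1 replicate 2 brought the count to 74. Both SMARCC1 libraries lay above all 36 other panel libraries in 39 members, or 4.84%, against 1.08% of all regions.

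At chr4:77409390-77410392 SMARCC1 clone 12 had 23.8 and 29.5 CPM, against 1.74 to 9.72 CPM with a median of 4.47 CPM in the 36 other panel libraries. This was a log2 fold change of 2.47 ± 0.15 (edgeR adjusted p = 1.51e-28), and it stands above the 9.72 to 15.2 CPM of the SMARCA4 knockouts and the 9.89 to 11.9 CPM of the ARID1A knockouts. At chr10:70430796-70431297, a region of minimum width, it had 4.20 and 4.80 CPM, against 0.191 to 2.15 CPM (2.15 ± 0.34, edgeR adjusted p = 3.63e-07). At chr2:103129196-103131017 it had 19.2 and 20.5 CPM, against 2.81 to 13.5 CPM (2.05 ± 0.16, edgeR adjusted p = 1.87e-20). Lower than the panel was chr4:73231494-73232828, with 3.69 and 3.84 CPM, against 4.46 to 13.2 CPM (-0.94 ± 0.22, edgeR adjusted p = 0.00124), a call that was lost without SMARCC1 replicate 1 and in limma on the authors' normalized values.

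The SMARCC1 calls and the SMARCA4 calls of the knockdown table rest on separate libraries. Of the 145 members called higher in the SMARCC1 knockout, 64 (44.1%) were among the 188 called in the SMARCA4 knockout, of which they are 34%. They also held 27 of the 46 called with SMARCA4 knockdown (58.7%) and 39 of the 64 called with the double knockdown (60.9%). Across the 806 members the log2 fold changes of SMARCC1 correlated only weakly with these. Pearson r was 0.18 for the SMARCA4 knockout, 0.26 for the SMARCA4 knockdown and 0.34 for the double knockdown. In SMARCC1 and the SMARCA4 knockout, calls rose with read level, as given below. The matching overlaps over all regions are not given, so these overlaps stand as counts and not as a result. In all, 269 members (33.4%) were called higher in the SMARCA4 knockout of the knockdown table or in the SMARCC1 knockout, as were 5.13% of the regions tested in both.

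Among the other subunits of canonical BAF, ARID1B clone 7 had 114 members called higher (14.1%) and 31 lower, where 11.2% of all regions were called higher and 5.75% lower, a share near the background. Its lower count was 13 and 16 without its replicate 1 or 2, and limma on the authors' normalized values gave 100 higher and 15 lower. The members' median was -0.01 in edgeR and 0.19 in limma, where that of all regions was 0.00 and 0.11. Its clearest members were far from the other clones: chr2:39987715-39988269 had 5.77 and 5.77 CPM, against 0.358 to 2.36 CPM in the 36 other libraries (log2 fold change 2.65 ± 0.30, edgeR adjusted p = 8.37e-13). The region chr15:48069606-48071226 fell to 1.86 and 1.51 CPM in ARID1B clone 7, against 4.97 to 24.5 CPM (-2.77 ± 0.25, edgeR adjusted p = 9.82e-18). DPF2, whose paired zinc fingers bind modified histone H3, had 65 higher (8.06%) and 12 lower, where 4.69% of all regions were called higher and 1.37% lower. The higher count was 18 and 43 without its replicate 1 or 2, and the lower count 3 without replicate 1. At chr1:4507838-4508616 the DPF2 knockout had 10.7 and 13.2 CPM, against 0.207 to 9.21 CPM (1.92 ± 0.19, edgeR adjusted p = 5.15e-15). DPF1 had 7 higher and 6 lower, where 0.276% and 0.247% of all regions were, and limma on the authors' normalized values gave 8 and 15. DPF3 had 2 higher and 12 lower, where 0.53% and 0.224% were. Without its own replicate 1 or 2 the DPF1 counts were 4 and 3 higher with 1 lower each time, and the DPF3 counts were 1 higher and 6 lower each time.

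Of the PBAF knockouts, ARID2 clone 9 had the most members called higher, 79 (9.8%), and 10 lower, where 3.15% of all regions were called higher and 3.36% lower, and the median was 0.18. Without ARID2 replicate 1 the count was 23 higher, and without either replicate it was 5 lower. The leading region, chr19:49298321-49299138, had 13.1 and 18.9 CPM, against 2.00 to 7.74 CPM (2.07 ± 0.19, edgeR adjusted p = 3.31e-16). BRD7, a bromodomain subunit, had 52 higher (6.45%) and 10 lower, where 2.48% and 1.17% of all regions were. Its counts were 32 higher and 4 lower without replicate 1, and 19 higher and 0 lower without replicate 2. At chr19:8590091-8590992 it had 34.2 and 39.0 CPM, against 2.60 to 24.5 CPM (2.46 ± 0.14, edgeR adjusted p = 6.32e-32), and all 4 SMARCA4 knockout libraries lay below it at 14.4 to 28.5 CPM.

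The remaining PBAF knockouts had fewer members called higher, and also fewer of all regions. PHF10 had 22 higher (2.73%) and 6 lower, where 1.07% and 0.922% of all regions were. Its higher count was 10 and 4 without its replicate 1 or 2, and its lower count 2 without replicate 2. At chr3:61550120-61550639 it had 8.70 and 12.1 CPM, against 1.45 to 7.56 CPM (1.48 ± 0.19, edgeR adjusted p = 3.67e-09). PBRM1, the polybromo subunit, had 20 higher (2.48%) and 9 lower, where 1.12% and 0.916% were. Its counts were 7 higher and 3 lower without replicate 1, and 1 higher and 4 lower without replicate 2. At chr13:107222780-107223336 PBRM1 clone 10 had 11.3 and 10.8 CPM, against 1.27 to 6.88 CPM (1.55 ± 0.19, edgeR adjusted p = 1.91e-09). At chr17:70588648-70589325 PBRM1 clone 10 was called lower with 2 reads in each library, 0.207 and 0.20 CPM, against 4.03 to 15.4 CPM in the 36 other libraries (edgeR adjusted p = 5.03e-22). The split between higher and lower moved with limma on the authors' values, which gave 11 and 8 for PHF10 and 16 and 15 for PBRM1. BRD9, of the form without ARID subunits, had 10 higher (1.24%) and 34 lower (4.22%), where 1.51% of all regions were called higher and 0.96% lower. Its counts were 5 higher and 12 lower without replicate 1, and 6 higher and 8 lower without replicate 2.

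The SMARCD subunits differed in their counts. SMARCD2 had 65 members called higher (8.06%) and 4 lower, where 2.48% of all regions were called higher and 1.81% lower. Without its replicate 1 or 2 it had 36 and 33 higher, and 2 and 1 lower. Its leading region was chr3:25197461-25198650 with 10.8 and 11.5 CPM, against 1.35 to 8.03 CPM (1.74 ± 0.19, edgeR adjusted p = 2.8e-12). SMARCD1 had 17 higher (2.11%) and 56 lower (6.95%), where 3.07% and 1.9% were. Without its replicate 1 or 2 it had 7 and 8 higher, and 17 and 21 lower. At chr13:64652099-64653228 it had 23.7 and 26.1 CPM, against 6.68 to 21.5 CPM (1.34 ± 0.14, edgeR adjusted p = 2.49e-13). SMARCD3 had 9 higher and 30 lower (3.72%), where 1.71% and 0.778% were, with 2 and 4 higher and 11 and 10 lower without its replicate 1 or 2.

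In the ATPase module, ACTB had 52 higher (6.45%) and 26 lower, where 4.43% and 1.86% of all regions were. Without its replicate 1 or 2 it had 31 and 26 higher, and 11 and 10 lower. The ACTB knockout had 10.4 and 12.1 CPM at chr1:155830084-155830655, against 1.63 to 5.73 CPM (1.78 ± 0.20, edgeR adjusted p = 2.92e-12). At chr2:237051359-237052132 it was called lower with 2 reads in one library and 0 in the other, 0.202 and 0 CPM, against 2.80 to 6.23 CPM (edgeR adjusted p = 3.4e-13). BCL7A had 28 higher (3.47%) and 6 lower, where 1.25% and 0.509% were, and 13 and 7 higher with 1 and 3 lower without its replicate 1 or 2. BCL7B clone 8 had 28 higher (3.47%) and 51 lower (6.33%), where 8.48% and 2.71% were. Its higher count was 13 without replicate 1, and its lower count 16 and 29 without replicate 1 or 2. At chr21:32715898-32716906 BCL7B clone 8 had 14.7 and 17.7 CPM, against 1.38 to 13.1 CPM (2.05 ± 0.18, edgeR adjusted p = 1.99e-18).

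SMARCA2, the alternative ATPase, had 7 higher and 12 lower, where 0.818% and 0.622% were. Without its replicate 1 or 2 it had 3 higher each time, and 6 and 1 lower. The transcription factors BCL11A and BCL11B, which join BAF in some tissues, had 11 higher each, with 28 and 29 lower, where 1.25% and 1.54% of all regions were called higher and 0.442% and 0.6% lower. Without its replicate 1 or 2, BCL11A had 1 and 2 higher and 4 and 7 lower, and BCL11B had 2 and 6 higher and 7 lower each time. Limma on the authors' values gave splits of higher and lower of 18 and 12 for BCL7A, 5 and 16 for SMARCA2, 6 and 33 for BCL11A and 4 and 23 for BCL11B.

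**Figure D5:**
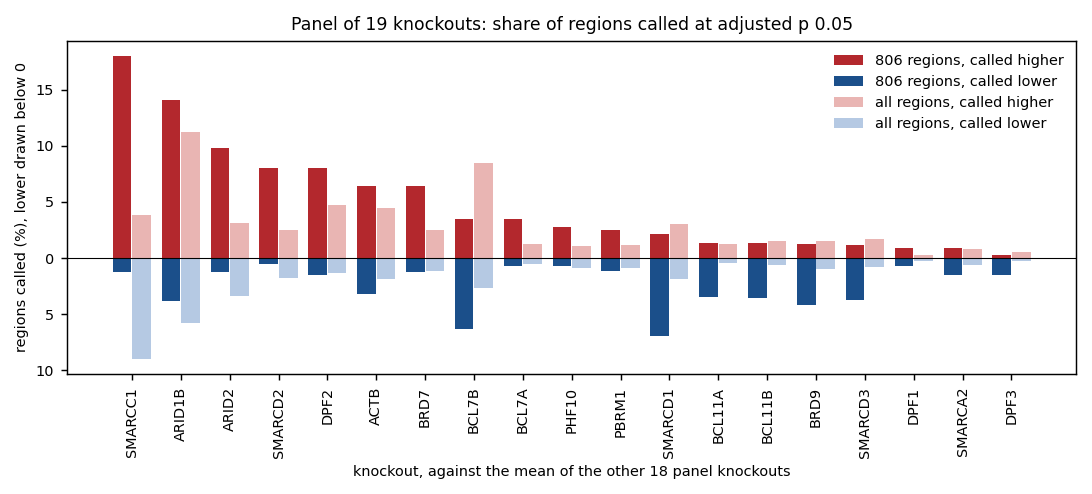
Share of regions called at an adjusted p of 0.05 in each of the 19 panel knockouts against the mean of the other 18, higher above 0 and lower below it, for the 806 regions (dark) and all regions tested (pale). SMARCC1 leads with 18% of the members called higher against 3.86% of all regions, and BCL7B, SMARCD1, SMARCD3, BRD9, BCL11A, BCL11B, SMARCA2 and DPF3 have more members called lower than higher, as has DPF1 in limma on the authors' values.

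Counted over the panel, 320 members (39.7%) were called higher in at least 1 of the 19 knockouts, as were 33.2% of all regions, a share near the background. In 2 or more knockouts 191 members (23.7%) were called higher, as were 12.7% of all regions, and 486 members were called higher in none. The largest number of panel knockouts that raised 1 member was 9. In 46 members (5.71%) SMARCC1 was the only panel knockout called higher, as in 2.62% of all regions. These comparisons share reference libraries, so their overlap is given as a count and not as a result.

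Set beside the 1182 regions that rose in the SMARCA4 knockout with an ARID1A rise under 0.2, the members had other shares in several knockouts. In SMARCC1, 18% of the members were called higher and 1.24% lower, against 6.01% and 10.7% of the regions of the SMARCA4 knockout alone. In ARID1B the shares were 14.1% higher and 3.85% lower for the members, against 8.88% and 25.3%. The order turned round in ARID2, with 9.8% of the members called higher, against 32.1%, in SMARCD2, with 8.06% against 20.6%, in ACTB, with 6.45% against 20.6%, and in BCL7A, with 3.47% against 17.5%. In the SMARCA4 knockout of the knockdown table both lists had about the same share called higher, 23.3% of the members and 23% of the 1181 others tested there. The 2 lists were chosen in part by the ARID1A libraries and these shares carry no test of their difference. Over all regions the shares called higher were 3.86% in SMARCC1, 11.2% in ARID1B and 3.15% in ARID2. They were 2.48% in SMARCD2, 4.43% in ACTB and 1.25% in BCL7A. The lists also differed in read level, and calls moved with read level, as given below. In wild-type replicates 1 and 2 the medians were 1.75 and 1.77 CPM over the members, against 3.69 and 3.97 CPM over the others. The part of read level in these shares was not tested.

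Set 2 offered wild-type libraries of its own, replicates 5 and 6. The filter on low counts kept 784 of the 806 members and removed 22. ARID1B clone 5 had 11 members called higher (1.4%) and 0 lower, where 0.0469% of all regions were called higher and 0.202% lower. At chr11:115374863-115375976 it had 51.9 and 43.1 CPM, against 14.7 and 7.73 CPM in wild type (log2 fold change 2.02 ± 0.23, edgeR adjusted p = 2.83e-09). This region took 2 separate levels across the clones of set 1, as described at the end. The rises of ARID1A clones 3 and 10 there were 0.16 and 2.28, so a difference between clones cannot be told apart from loss of ARID1B. The count was 6 and 7 without clone replicates 1 and 2, and 5 and 4 without wild-type replicates 5 and 6. BCL7B clone 10 had 12 members higher (1.53%) and 0 lower, where 0.0946% of all regions were called higher and 0.366% lower, led by chr19:17952552-17953444 with 20.7 and 18.1 CPM, against 4.64 and 4.81 CPM (1.94 ± 0.28, edgeR adjusted p = 3.84e-06). Without clone replicate 1 the count was 3, and without wild-type replicate 5 or 6 it was 6. SMARCC2 clone 10, which lacks the other scaffold subunit, had 3 members higher (0.383%) and 0 lower, where 0.0329% of all regions were called higher and 0.0406% lower. At chr5:176797552-176798226 it had 25.3 and 20.9 CPM, against 6.96 and 5.83 CPM (1.82 ± 0.24, edgeR adjusted p = 4.78e-07). These libraries hold 14 to 17 reads at the median member, and the fit had 4 residual degrees of freedom. At an unadjusted p under 0.05, 14, 19 and 15 members were lower in the 3 clones, where 4.05%, 6.2% and 2.76% of all regions were, and DESeq2 called 0 lower in each. Between the 2 clones of a gene, the log2 fold changes of the 784 members did not go together. Pearson r was -0.03 for ARID1B and 0.05 for BCL7B. Of the members called higher here, 6 of 11 were also called higher in ARID1B clone 7 and 2 of 12 in BCL7B clone 8. Those 2 panel clones called 14.1% and 3.47% of the members higher, and 11.2% and 8.48% of all regions. The matching overlaps over all regions are not given, so these overlaps stand as counts and not as a result. Clone, set and reference all differed between these comparisons and cannot be told apart.

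How often a member was called moved with how many reads it held. The classes were cut on wild-type replicates 1 and 2, which also chose the members. The matching shares of all regions in each class are not given. For SMARCA4 knockout cells with control knockdown, 9.02% of the 133 members under 1 CPM in wild-type replicates 1 and 2 were called higher, 11.1% of the 325 members at 1 to 2 CPM, 32.1% of the 187 at 2 to 4 CPM and 49.7% of the 161 at 4 CPM or more. In the SMARCC1 knockout the shares were 6.77%, 8%, 23% and 41.6%. The median log2 fold change moved less in SMARCC1, where it was 0.31, 0.34, 0.35 and 0.36 in the same order, and was 0.58, 0.59, 0.96 and 1.09 in the SMARCA4 knockout. The median width was 501 base pairs in the classes under 2 CPM, 639 at 2 to 4 CPM and 831 above.

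The size of the rise also went with the calls in libraries the rule did not use. The SMARCA4 knockout cells of the knockdown table may come from a clone that chose the regions. Their calls may then repeat the state of that clone. Over all regions, 1.49% were called higher in that knockout and 3.86% in SMARCC1. Of the 269 members with the lowest smaller rise, 0.80 to 0.87, 33 (12.3%) were called higher in the SMARCA4 knockout of the knockdown table and 33 (12.3%) in SMARCC1. Of the 269 with the highest, 0.99 to 2.64, 106 (39.4%) and 74 (27.5%) were. The 341 members that also rose by 0.8 in both knockouts over wild-type replicates 5 and 6 had 145 (42.5%) called higher in the SMARCA4 knockout and 89 (26.1%) in SMARCC1, and the other 465 had 43 (9.25%) and 56 (12%). Those 341 were also more accessible in wild type, at a median of 2.50 CPM, against 1.37 CPM in the other 465, and the part of that difference in the counts was not tested. Members whose rise was larger without ARID1A than without SMARCA4, 329 in number, were called higher in SMARCC1 in 19.5% and in the SMARCA4 knockout in 18.8%, against 17% and 26.4% of the 477 with the larger rise without SMARCA4.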

How the data were processed

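ATAC-seq was measured in HAP1 knockout clones and knockdown cells. The deposited tables of the authors hold read counts per region. Bowtie2 2.2.4, Picard 1.118, MACS2 2.1.1.20160309 and hg19 are named in the submitters' processing notes, with no further detail given in the sources used here. Another deposited table holds the authors' normalized accessibility, taken from its values to be on a log2 scale, and served only as an alternative. Of 74 labelled samples 72 matched a count column, and 2 columns that match no listed sample were not used.

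Regions were chosen from the counts by the rule given above. Members and lists were chosen with earlier results of these data known. Tests used edgeR 4.0.16 (TMM, default expression filter, quasi-likelihood F test, Benjamini-Hochberg adjustment over all regions tested, threshold 0.05) in R 4.3.3, in 3 fits: the knockdown table (16 libraries, 8 residual degrees of freedom), the panel of 19 knockouts (38 libraries, 19) and set 2 (8 libraries, 4). The panel contrast is a clone against the mean of the other 18. SE is the log2 fold change divided by the root of the F statistic. Named regions were the 10 with the largest smaller rise, the 3 nearest either side of the threshold, and the members with the largest called change per comparison. The fits were tested on simulated data. Alternatives were DESeq2 1.42.0, limma 3.58.1 on the authors' log2 values, other normalizations, no filter, a replicate block, each library left out, and other member rules. Python 3.11.15, pandas 2.3.3, numpy 2.4.6 and matplotlib 3.10.9 made summaries and figures. No genome of the build was used, so no sequence or gene is given.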

Additional observations from a re-analysis of the deposited data

Results flagged for a closer look

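In 5 of 106 groups of 4 libraries checked, 1 library stood apart from the other 3 by Dixon's test, a share near the 1 in 20 that chance gives. At chr4:77409390-77410392 SMARCA4 clone 4 replicate 2 had 15.2 CPM, and the other SMARCA4 knockout libraries had 9.72 to 10.4 CPM. At chr12:22630055-22631290 SMARCA4 clone 6 replicate 2 had 5.97 CPM, and the others had 5.40 to 5.47 CPM. At chr1:97063749-97064425 ARID1A clone 10 replicate 2 had 6.88 CPM, and the other ARID1A knockout libraries had 4.89 to 5.06 CPM. The last 2 had 1 low ARID1A library: chr2:39987715-39988269 with 2.03 CPM in clone 3 replicate 2, where the others had 3.43 to 3.55 CPM, and chr19:58661550-58662464 with 7.82 CPM in clone 10 replicate 2, where the others had 9.89 to 10.3 CPM.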

How the results depend on the processing

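The percentages here are shares of the members tested that were called higher, in the order SMARCA4 knockout, SMARCA4 knockdown, double knockdown, ARID2 knockout, SMARCA4 knockdown in ARID2 knockout cells, SMARCA4 knockout against knockdown, SMARCC1 knockout, ARID1B clone 5, BCL7B clone 10 and SMARCC2 clone 10, leaving out those within 1.5 times of the reported share. The number of members depended most on the rule: 252 with a rise of at least 1, 2501 with 0.6, 389 with an offset of 1 CPM, 2716 with wild-type replicate 1 alone as the base, 1635 with replicate 2 alone, and 374 with the rise required in each of the 4 clones. With a rise of at least 1 the shares were 40.9%, 9.52%, 14.7%, 0.794%, 1.98%, 14.7%, 28.2%, 3.27%, 2.45% and 1.22%. With 0.6 they were 14% in the SMARCA4 knockout, 4.2% in the double knockdown, 0.2%, 0.56% and 3.24% in the next 3, and 0.532%, 0.737% and 0.164% in set 2. With the offset of 1 CPM they were 37.8%, 9%, 13.6%, 0.771%, 1.54%, 13.4%, 27.8%, 2.36%, 2.36% and 0.785%. With wild-type replicate 1 alone they were 10.2%, 2.98%, 3.17%, 0.184%, 0.368%, 2.21%, 9.98%, 0.449%, 0.562% and 0.15%, and with replicate 2 alone 12.8%, 3.3%, 4.34%, 0.122%, 0.428%, 3.61%, 11.6%, 0.564%, 0.69% and 0.188%. With the rise in each of the 4 clones the double knockdown had 12.6%. Calls summed over the other 18 panel comparisons were 599 higher and 372 lower with the rule as reported. Scaled to 806 regions, they were 988, 390, 982, 256 and 391 higher under the first 5 of these rules. In the same order they were 624, 238, 644, 165 and 222 lower.

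With DESeq2 the shares were 3.35% in the SMARCA4 knockdown, and 0.383%, 0.765% and 0.255% in set 2. With library totals alone in place of TMM, SMARCA4 knockdown in ARID2 knockout cells had 1.74%. That scaling moved the median log2 fold change of all regions to 0.21 in the ARID2 knockout (members 0.52), -0.14 in the interaction (members -0.39), 0.11 with ARID2 knockdown in wild-type cells (members 0.31), -0.12 with SMARCA4 knockdown in ARID2 knockout cells (members 0.09) and -0.11 in ARID1B clone 7. In the panel, DESeq2 called 12 members higher in PBRM1 against 20 in edgeR and 11 in SMARCD1 against 17, and limma on the authors' values called 29 in DPF2 against 65, 11 in PHF10 against 22, 9 in SMARCD1 against 17, 18 in BCL7A against 28, 6 and 4 in BCL11A and BCL11B against 11 each, and 1 in DPF3 against 2. Called lower in limma were 15 members in ARID1B against 31, 6 in DPF2 against 12, 4 in SMARCC1 against 10, 22 in DPF3 against 12 and 7 in SMARCD2 against 4. With library totals alone ARID1B had 93 higher and 42 lower. The causes were not tested.

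Leaving out 1 library at a time gave 10.7% to 16.3% in the SMARCA4 knockout, 1.36% to 4.47% in the SMARCA4 knockdown, 2.36% to 5.58% in the double knockdown, 0% to 0.496% in the ARID2 knockout, 0.248% to 0.993% with SMARCA4 knockdown in ARID2 knockout cells, 0% to 0.248% with ARID2 knockdown in SMARCA4 knockout cells, 1.61% to 3.6% in knockout against knockdown, 9.18% to 18.5% in SMARCC1, 0.499% to 0.871% in ARID1B clone 5, 0.375% to 1.13% in BCL7B clone 10 and 0.249% to 0.375% in SMARCC2 clone 10. A lone library of a group was assumed to vary like the other groups. In the SMARCA4 knockout, the SMARCA4 knockdown and the double knockdown, calls over all regions fell in these fits as well. The members' median log2 fold change was 0.78 to 0.85, 0.38 to 0.53 and 0.38 to 0.53 in the same order. No named region changed sign under any alternative run, and 31 of 1338 recomputed calls of named regions were lost.

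Replicate numbers were not taken as a pairing, for which every pair of groups had to correlate above 0.1. In the knockdown table deviations of same-numbered libraries correlated positively in all 28 pairs of groups and above 0.1 in 25 (lowest r 0.0525, median 0.26), so that these libraries share deviations. In the panel 19 of 171 pairs were above 0.1 (lowest r -0.16, median 0.02). With the replicate block the shares were 11.4% in the SMARCA4 knockdown, 12.9% in the double knockdown, 1.74% in the ARID2 knockout, 6.82% with SMARCA4 knockdown in ARID2 knockout cells (55 members against 7 without the block, with 2405 and 81 of all regions called higher) and 11.9% in knockout against knockdown. The SMARCA4 knockout had 260 members called higher and SMARCC1 147. The median member held 14 to 47 reads a library, which limits what small changes could be called.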

Other observations

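One member took 2 separate levels across set 1. The region chr11:115374863-115375976 averaged 5.49 to 17 CPM in 12 groups and 39.3 to 60.5 CPM in the other 12, with no group between and a gap of 1.19 on the log2 scale. The lower level held ACTB, ARID1A clone 3, ARID2, BRD7, DPF1, DPF2, DPF3, PBRM1, PHF10, SMARCA2, SMARCD2 and wild-type replicates 1 and 2. The 2 ARID1A clones fell on different sides, with 12.1 and 10.8 CPM in clone 3 and 51.4 and 51.2 CPM in clone 10. A gap of at least 1 with at least 5 groups on each side was found in 1 of the 806 members (0.124%) and in 27 of the 138795 autosomal regions (0.0195%). The 2 clones of ARID1A thus differed at this member, and a gene with 1 clone offers no such comparison. The same region had the leading change of ARID1B clone 5 in set 2.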
